A study of Mus musculus with 6 samples.

Results

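A set of 42 genes that interferons induce in mouse cells were followed in 4T1 mammary tumours of mice given Vismodegib or its vehicle. The genes were listed by name as interferon-induced, from sensors and transcription factors to antiviral effectors and GTPases, and every one of the 42 was present among the 23381 gene symbols of the deposited expression table. Of these, 41 averaged 0.5 RPKM or more across the 6 libraries and were tested together with all other genes at that level, 11818 in all; Mx1 lay below it. RPKM is reads per kilobase of gene, scaled to a library's total reads, so that levels of different genes can be set side by side.

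The tumours of both groups grew from 500000 4T1 cells in the inguinal mammary fat pad; the Balb/c hosts were aged 10 weeks. 4T1 is a mouse mammary carcinoma line from the same strain, so the hosts kept their own immune cells. The Vismodegib group (3 libraries) had 3 weeks of treatment with 3 doses weekly, each of 2 mg per mouse, and the DMSO group (3 libraries) received the vehicle; no allele or other agent is named for either. Vismodegib is a drug that inhibits Smoothened and thereby the cellular response to Hedgehog ligands, and the comparison asked how this treatment altered the RNA of whole tumours, which held carcinoma cells and host cells together. In such bulk samples, fewer cells of a type and less RNA per cell cannot be told apart. The labels do not state that each library came from its own mouse, so p-values here reflect spread among these libraries, which may be technical.

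Interferons are secreted proteins that cells release on sensing foreign or misplaced nucleic acid, or, for interferon gamma, that activated T and NK cells release. Type I interferons signal through JAK1 and TYK2 to a complex that includes STAT2 and IRF9 and binds interferon-stimulated response elements (ISREs), while interferon gamma signals through JAK1 and JAK2 and acts on gamma-activated sequences (GAS). The genes so induced encode proteins that detect or degrade viral RNA, block translation, modify other proteins, or attack the membranes around intracellular pathogens, and in tumours they are commonly read as a record of interferon exposure of carcinoma, stromal and immune cells.

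Promoters of the members are shown first because the genes were grouped by a common inducer, which acts through short elements near the start of transcription. RefSeq promoter windows on GRCm38.p6 (the mm10 build), from 250 bases before to 50 after the start, were on hand for 30 of the 42 members. The ISRE core was searched as GAAA, any 2 bases and GAAA again, and GAS as TTCNNNGAA, on both strands. An ISRE core was in the window of 19 of 30 members (63.3%), against 3.99% of the 27025 genes with a window, and a GAS was in 11 of 30 (36.7%), against 9.55%. The 28 ISRE matches included 25 before the start, in 16 genes, lying 14 to 222 bases before it. The first 6 stretches below are from the members with this motif that led their role groups in level or in p, and Irf1 is added, after its values were seen, because its groups did not overlap. Each is the 150 bases before the start, read 5′ to 3′ on the gene's strand, with capitals for the ISRE core, or for the GAS in Irf1. They lie at chr4:156200819-156200968 (minus strand) for Isg15, chr8:71537473-71537622 (minus) for Bst2, chr5:120907526-120907675 (minus) for Oas1a, chr19:34640739-34640888 (plus) for Ifit1, chr3:142620513-142620662 (plus) for Gbp2, chr11:58199406-58199555 (plus) for Igtp and chr11:53769864-53770013 (plus) for Irf1.
Isg15: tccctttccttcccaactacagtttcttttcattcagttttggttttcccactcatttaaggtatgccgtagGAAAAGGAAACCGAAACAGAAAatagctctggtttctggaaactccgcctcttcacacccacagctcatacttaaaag
Bst2: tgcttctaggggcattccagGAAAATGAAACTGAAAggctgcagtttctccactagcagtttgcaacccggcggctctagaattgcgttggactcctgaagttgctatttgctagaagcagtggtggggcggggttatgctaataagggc
Oas1a: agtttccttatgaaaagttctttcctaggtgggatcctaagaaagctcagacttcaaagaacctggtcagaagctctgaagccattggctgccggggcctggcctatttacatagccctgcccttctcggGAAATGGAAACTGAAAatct
Ifit1: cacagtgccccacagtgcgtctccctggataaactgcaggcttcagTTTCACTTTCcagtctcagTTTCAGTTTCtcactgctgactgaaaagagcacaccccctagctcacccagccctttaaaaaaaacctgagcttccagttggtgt
Gbp2: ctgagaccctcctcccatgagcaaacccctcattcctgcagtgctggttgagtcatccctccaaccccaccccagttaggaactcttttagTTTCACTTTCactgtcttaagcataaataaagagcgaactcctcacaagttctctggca
Igtp: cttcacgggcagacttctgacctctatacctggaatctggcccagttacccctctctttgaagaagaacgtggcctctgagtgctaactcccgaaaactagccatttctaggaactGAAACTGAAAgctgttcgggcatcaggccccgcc
Irf1: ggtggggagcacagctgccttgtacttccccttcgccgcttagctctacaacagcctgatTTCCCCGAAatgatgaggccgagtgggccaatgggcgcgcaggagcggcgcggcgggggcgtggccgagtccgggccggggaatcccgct
In Isg15, 3 overlapping ISRE cores began 78, 72 and 66 bases before the start, in Bst2 a pair of overlapping cores began 130 and 124 bases before it, with a GAS at 136 that overlaps the first, and in Oas1a a pair began at 20 and 14. Ifit1 held separate cores at 104 and 85, Gbp2 had one at 59 and Igtp one at 34. Irf1 had no ISRE core in its windows and a GAS at 90. A match of letters is a description of sequence and not a mapped binding site.

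The 42 genes spanned a wide range of levels. Their mean over the 6 libraries ran from 0.399 RPKM in Mx1 to 1681 RPKM in Bst2; 3 members, Bst2, Isg15 and Igtp, were at 100 RPKM or more, 21 lay between 10 and 100 and 18 below 10. No member changed past the test: by limma on log2(RPKM + 0.5) with Benjamini-Hochberg adjustment over the 11818 genes, 0 of 41 had an adjusted p under 0.05, where 0% of all genes did. At an unadjusted p under 0.05 there were again 0 of 41, against 2.25% of all genes (0.313% lower and 1.94% higher in Vismodegib). The smallest unadjusted p among the members was 0.142 by limma, in Gbp3. The differences, Vismodegib minus DMSO, nonetheless lay mostly on one side of 0: 35 of 41 members (85.4%) were below 0, against 41.6% of all genes, with a median of -0.19 against 0.05 for all genes. They ran from -0.82 in Ifit3b to 0.17 in Irf9 on the log2 scale, and the 95% interval of each included 0. In 1 member, Irf1, all Vismodegib libraries lay below all DMSO libraries (2.44% of 41, against 0.745% of all genes), and in 0 members did they all lie above, against 4.29% of all genes.

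The median and the count moved toward no lean without DMSO replicate 3, and further from it without DMSO replicate 1. Without DMSO replicate 3 the median was -0.02 and 24 of 41 members were below 0, and without DMSO replicate 1 it was -0.42, with 39 of 41 below 0 and 8 members at an unadjusted p under 0.05 by limma. Leaving out DMSO replicate 2 gave -0.14, with 32 of 41 below 0. Leaving out Vismodegib replicates 1, 2 or 3 gave -0.26, -0.20 or -0.22, with 35, 37 or 30 of 41 below 0. With library weights that limma estimated from the data, 7.28 for DMSO replicate 3, 0.319 and 0.316 for DMSO replicates 1 and 2, and 0.461 to 2.34 in Vismodegib, the median was -0.54, 28 members had an unadjusted p under 0.05 and 4 an adjusted p under 0.05. That fit leans on DMSO replicate 3, the library without which the median was -0.02. Over all genes tested, the median was 0.01 with weights, -0.002 without DMSO replicate 1 and 0.08 without DMSO replicate 3. Of all 11818 genes, 420 had an adjusted p under 0.05 by limma with weights and 19 without DMSO replicate 1. The share of all genes at an unadjusted p in these fits is not given here, so the counts of 8 and 28 members have no background.

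**Figure D1:**
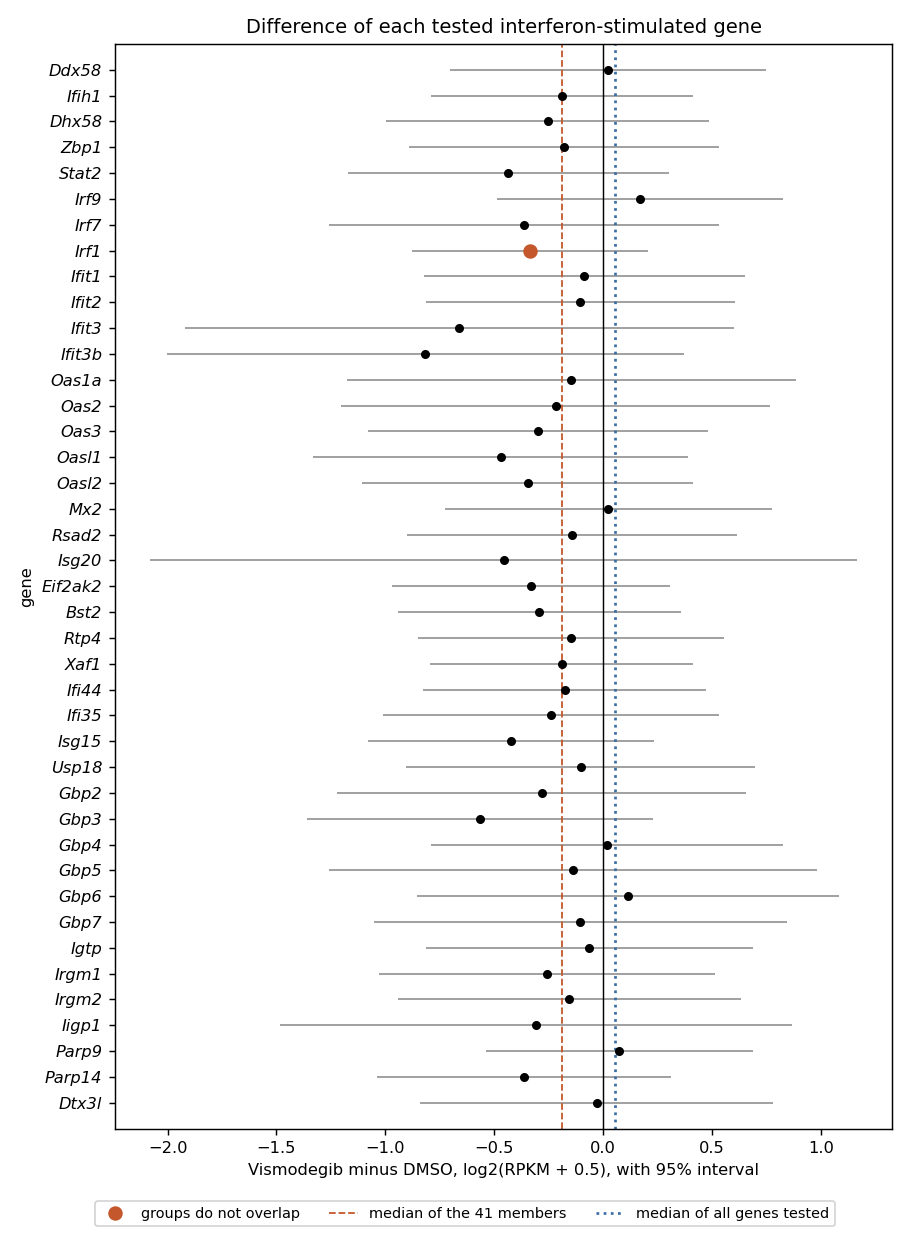
Difference of each of the 41 tested members (Vismodegib minus DMSO, log2(RPKM + 0.5), horizontal axis) with its 95% interval from limma, genes by role down the page. Every interval includes 0; the dashed line at -0.19 is the members' median and the dotted line at 0.05 that of all genes tested, and the large point is Irf1, whose groups did not overlap.

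The plot of differences shows how broad the intervals are beside the differences. Ifit3b, with the lowest value, had an interval from -2.005 to 0.37, and Irf1, whose interval was among the narrower ones, ran from -0.88 to 0.21.

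Among the sensors, which recognise foreign or misplaced nucleic acid, differences were small: 1 of 4 was above 0 and 3 below, with a median of -0.18. Zbp1, a sensor of Z-form nucleic acid that can trigger necroptosis (chr2:173206612-173218923), was the most abundant, at 29.4, 22.6 and 27.0 RPKM in Vismodegib replicates 1, 2 and 3 and at 19.3, 37.7 and 35.9 RPKM in DMSO replicates 1, 2 and 3. The lowest and the highest value were both in DMSO libraries, and all 3 Vismodegib values lay between them. The means were 26.4 ± 3.44 RPKM in Vismodegib and 31.0 ± 10.1 RPKM in DMSO (SD, n = 3 each, as in all means below), a difference of -0.18 with an interval from -0.89 to 0.53. Dhx58 (LGP2, a regulator of the RNA helicase sensors; chr11:100694884-100704271) was at 7.72, 7.45 and 13.3 RPKM in Vismodegib and at 8.09, 14.7 and 11.2 RPKM in DMSO. One Vismodegib library was close to the DMSO maximum, the groups overlapped, and the difference was -0.25 (95% interval -0.996 to 0.49). The helicases themselves, Ddx58 (RIG-I) and Ifih1 (MDA5), had differences of 0.02 and -0.19.

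Among the transcription factors that carry the interferon signal to DNA, 1 of 4 was above 0 and 3 below, with a median of -0.35. Irf1, an early factor that is itself induced by interferon gamma (chr11:53770014-53778374), was at 71.4, 67.6 and 67.9 RPKM in Vismodegib and at 79.1, 83.6 and 99.8 RPKM in DMSO. The groups did not overlap, with the Vismodegib libraries close together and the DMSO libraries more spread. The means were 68.9 ± 2.11 RPKM in Vismodegib and 87.5 ± 10.9 RPKM in DMSO, and the difference was -0.34 (SE 0.238; limma, unadjusted p = 0.194, adjusted p = 1). A two-sided exact permutation test gave p = 0.1, the smallest that 3 against 3 libraries allow. Any gene whose groups do not overlap gets this value, so it adds nothing to the absence of overlap. Stat2, which is activated by type I interferon, was at 5.30, 4.64 and 3.78 RPKM in Vismodegib and at 3.87, 7.93 and 8.06 RPKM in DMSO, a difference of -0.43. Its partner Irf9 was at 12.9, 13.0 and 11.98 RPKM in Vismodegib and at 13.4, 7.55 and 13.7 RPKM in DMSO, a difference of 0.17, so the subunits of one complex lay on opposite sides of 0, within overlapping groups. Irf7, which amplifies type I interferon production, ranged more widely, with 30.5, 32.5 and 67.7 RPKM in Vismodegib and 35.6, 74.9 and 54.2 RPKM in DMSO, and a difference of -0.36.

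**Figure D2:**
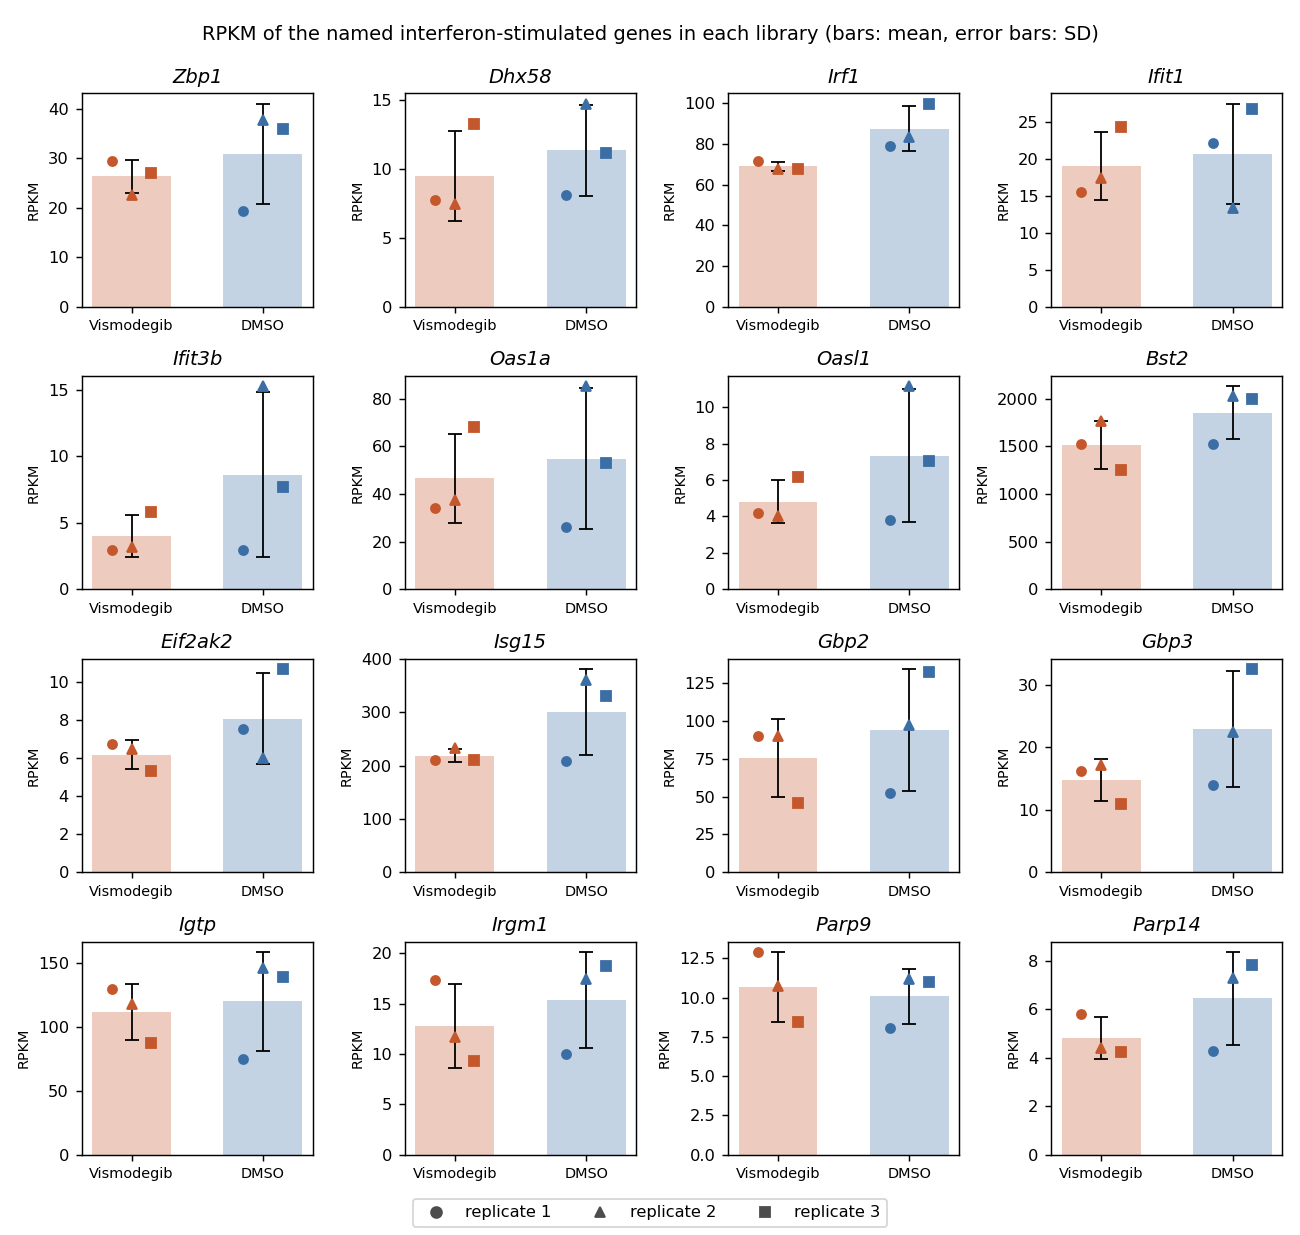
RPKM of 16 members in each library (vertical axes, each from 0), with Vismodegib left of DMSO, bars for the mean, error bars for the SD of 3 libraries and one symbol per replicate. Irf1 is the panel without overlap; in Isg15, DMSO replicate 1 (209.3 RPKM) lies at the level of the Vismodegib libraries.

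The panels of RPKM by library show a recurrent shape, in which DMSO replicate 1 lies at or near the lowest Vismodegib value and DMSO replicates 2 and 3 extend above them, as in Isg15 and Parp14.

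The IFIT proteins bind viral RNA and hinder its translation, and their 4 genes form a cluster (chr19:34550694-34650009). All 4 differences were below 0, with a median of -0.38, and none passed the test. Ifit1, the most abundant, was at 15.5, 17.5 and 24.4 RPKM in Vismodegib and at 22.2, 13.4 and 26.8 RPKM in DMSO. These values interleave, with means of 19.1 ± 4.63 RPKM in Vismodegib and 20.8 ± 6.81 RPKM in DMSO, and the difference of -0.09 was 0.05 without Vismodegib replicate 1 and 0.12 without DMSO replicate 3. Ifit3b (chr19:34607970-34613401) was at 2.97, 3.18 and 5.83 RPKM in Vismodegib and at 2.93, 15.3 and 7.70 RPKM in DMSO. The lowest of the 6 values and the 2 highest were all DMSO, and the difference of -0.82 had the interval given above (limma, unadjusted p = 0.153). Ifit3 showed the same order of DMSO libraries, with 8.24, 8.76 and 13.8 RPKM in Vismodegib and 5.81, 31.8 and 21.9 RPKM in DMSO, a difference of -0.66. Ifit3 and Ifit3b share 31.7% and 27.4% of their 100-base stretches with each other, so reads could be split between them and they do not count as separate evidence. Ifit2, the remaining member, had a difference of -0.10.

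The OAS enzymes make a nucleotide messenger that activates the RNA-degrading enzyme RNase L, and their OAS-like relatives are listed with them. All 5 genes, on chromosome 5, had differences below 0, with a median of -0.30, and none passed. Oas1a (chr5:120896256-120907521) was at 34.0, 37.6 and 67.9 RPKM in Vismodegib and at 26.0, 85.1 and 53.1 RPKM in DMSO. Vismodegib replicate 3 stood nearer to DMSO replicates 2 and 3 than to its own group, and the means were 46.5 ± 18.6 RPKM in Vismodegib and 54.7 ± 29.6 RPKM in DMSO. Its difference of -0.15 turned to 0.04 without Vismodegib replicate 1 and to 0.25 without DMSO replicate 2, and 40.9% of its 100-base stretches also occur in Oas1g. Oasl1, an OAS-like protein that inhibits translation of IRF7 in mouse (chr5:114923240-114937915), was at 4.22, 4.05 and 6.20 RPKM in Vismodegib and at 3.83, 11.2 and 7.07 RPKM in DMSO, a difference of -0.47 (95% interval -1.33 to 0.39). Oasl2, Oas3 and Oas2 had differences of -0.35, -0.30 and -0.22.

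Of the Mx proteins and other antiviral effectors, 9 were tested, 1 above 0 and 8 below, with a median of -0.19. Bst2, or tetherin, a membrane protein that holds budding virions to the cell (chr8:71534255-71537456), was the most abundant member of all, at 1521, 1762 and 1254 RPKM in Vismodegib and at 1529, 2024 and 1998 RPKM in DMSO. DMSO replicate 1 lay within the Vismodegib range and the other DMSO libraries above it, with means of 1512 ± 254 RPKM in Vismodegib and 1850 ± 279 RPKM in DMSO and a difference of -0.29 (95% interval -0.94 to 0.36). Bst2 is also a marker of plasmacytoid dendritic cells in mouse; of the other 4 markers listed for these cells, Siglech and Ccr9 reached no more than 0.454 and 0.00936 RPKM in any library, while Ly6d was at 11.2 to 71.3 RPKM in Vismodegib and 12.3 to 53.2 RPKM in DMSO and Tcf4 at 3.36 to 9.69 RPKM in Vismodegib and 2.14 to 12.8 RPKM in DMSO. The part of these cells in the level of Bst2 was not tested. Eif2ak2, the RNA-activated kinase PKR that halts translation (chr17:78852564-78882573), was at 6.73, 6.48 and 5.30 RPKM in Vismodegib and at 7.51, 5.99 and 10.7 RPKM in DMSO. Here it was DMSO replicate 2 that lay inside the Vismodegib range, and the difference was -0.33 (95% interval -0.97 to 0.31). Isg20, an exonuclease of single-stranded RNA, had the widest interval of any member, with 13.3, 9.88 and 5.57 RPKM in Vismodegib and 3.09, 22.4 and 26.9 RPKM in DMSO, and a difference of -0.46. Mx1, a GTPase against influenza viruses that is disabled in many laboratory mouse strains, was the member below the filter, with 0.330, 0.352 and 0.246 RPKM in Vismodegib and 0.296, 0.538 and 0.634 RPKM in DMSO (two-sided exact permutation p = 0.3). Its relative Mx2 had a difference of 0.02. The remaining effectors, Rsad2 (viperin, which makes a chain-terminating nucleotide), Xaf1, Ifi44, Ifi35 and Rtp4, had differences between -0.24 and -0.14.

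ISG15 is a ubiquitin-like protein that is attached to other proteins, and USP18 removes it and also dampens signalling at the type I interferon receptor. Isg15 (chr4:156199424-156200818) was at 211.6, 232.7 and 211.1 RPKM in Vismodegib and at 209.3, 361.8 and 331.7 RPKM in DMSO. The Vismodegib libraries lay within a narrow band, at the level of DMSO replicate 1 and below DMSO replicates 2 and 3. The means were 218.5 ± 12.4 RPKM in Vismodegib and 300.9 ± 80.8 RPKM in DMSO, with a difference of -0.42 (95% interval -1.08 to 0.23; limma, unadjusted p = 0.178, adjusted p = 1). Usp18 was at 13.3, 11.8 and 10.46 RPKM in Vismodegib and at 7.43, 19.2 and 14.3 RPKM in DMSO, a difference of -0.10 with the Vismodegib values inside the DMSO range.

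Guanylate-binding proteins are large GTPases that coat the vacuoles of intracellular pathogens, and in mouse they respond strongly to interferon gamma. Of 6 tested, 2 were above 0 and 4 below, with a median of -0.12. Gbp2 (chr3:142620602-142638008) was at 90.2, 90.2 and 45.9 RPKM in Vismodegib and at 52.2, 97.7 and 132.5 RPKM in DMSO. The lowest value was a Vismodegib one and the highest a DMSO one, and the difference of -0.28 was 0.04 without Vismodegib replicate 3 and 0.01 without DMSO replicate 3. Gbp3 (chr3:142560026-142573209) was at 16.3, 17.1 and 10.98 RPKM in Vismodegib and at 14.0, 22.4 and 32.6 RPKM in DMSO, with means of 14.8 ± 3.34 RPKM in Vismodegib and 23.0 ± 9.31 RPKM in DMSO. Its difference of -0.56 (95% interval -1.36 to 0.23) came with the smallest p given above, and again DMSO replicate 1 lay among the Vismodegib values. Gbp4, Gbp5, Gbp6 and Gbp7 had differences of 0.02, -0.14, 0.12 and -0.10; of these, Gbp6 shares 51.3% of its 100-base stretches with other genes, among them Gbp10 and Gbp11.

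The immunity-related GTPases act on the same vacuoles, and all 4 had differences below 0, with a median of -0.21. Igtp (IRGM3, one of the regulatory members of the family; chr11:58199556-58207591) was at 129.7, 118.1 and 87.1 RPKM in Vismodegib and at 75.3, 145.7 and 138.7 RPKM in DMSO. The Vismodegib values all lay within the DMSO range, and the difference of -0.06 was 0.11 without Vismodegib replicate 3, 0.11 without DMSO replicate 2 and 0.07 without DMSO replicate 3. Irgm1, another regulatory member (chr11:48861968-48871683), was at 17.3, 11.7 and 9.28 RPKM in Vismodegib and at 9.98, 17.5 and 18.8 RPKM in DMSO, a difference of -0.26 (95% interval -1.03 to 0.52). Irgm2 and the effector Iigp1 had differences of -0.16 and -0.31.

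PARP9, PARP14 and DTX3L are ADP-ribosylation proteins, PARP9 working in a complex with the ubiquitin ligase DTX3L, and their genes are neighbours (chr16:35832874-35972605). Parp9 was at 12.9, 10.7 and 8.43 RPKM in Vismodegib and at 8.07, 11.2 and 10.97 RPKM in DMSO. Its difference of 0.07 was among the few above 0 and was -0.004 with median-ratio scaling, -0.06 without Vismodegib replicate 1 and -0.07 without DMSO replicate 1. Parp14 was at 5.82, 4.40 and 4.22 RPKM in Vismodegib and at 4.28, 7.28 and 7.84 RPKM in DMSO, a difference of -0.36 (95% interval -1.04 to 0.31). Dtx3l, which overlaps Parp9 on the opposite strand, had a difference of -0.03. In all, 12 members overlap a gene on the other strand, Irf1 and Dhx58 among them, and no source used here states whether the authors' counting used strand.

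The members varied more between DMSO libraries than between Vismodegib libraries. The median SD of a member within a group was 0.339 in Vismodegib and 0.527 in DMSO on the log2 scale, against 0.281 and 0.384 for all genes, and the SD was the smaller one in Vismodegib in 32 of 41 members (78.0%), against 64.8% of all genes. Of the 3 DMSO libraries, replicate 1 had the lowest value in 34 of 41 members (82.9%), against 49.7% of all genes. Replicate 3 had the lowest value in 0 of 41, against 18.6%, and the highest in 24 of 41 (58.5%), against 31.0%. In 17 of 41 members (41.5%) all Vismodegib values lay inside the DMSO range, against 35.1% of all genes.

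**Figure D3:**
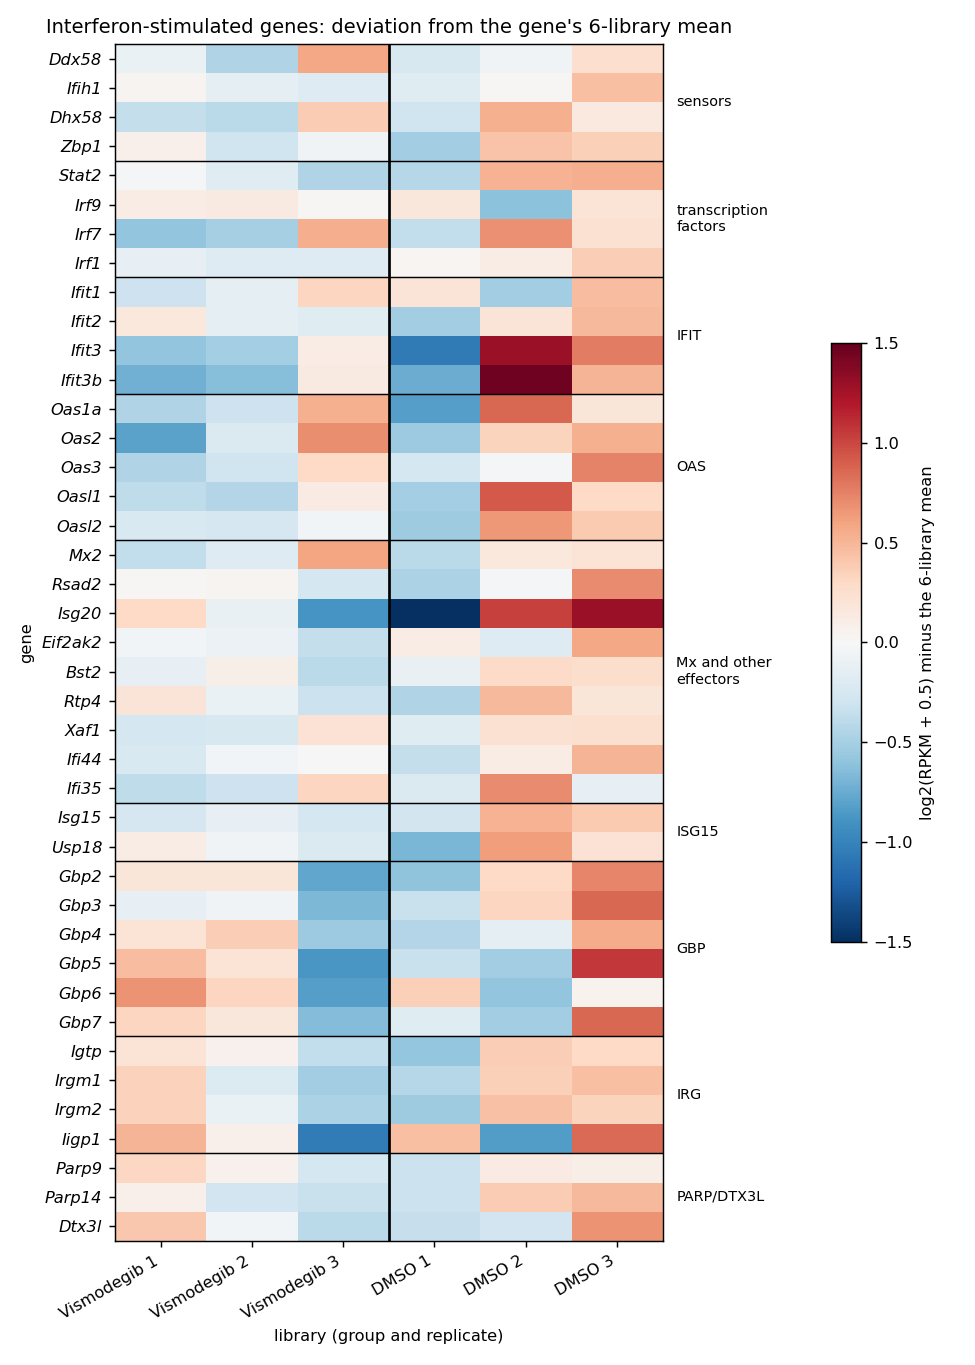
Deviation of each tested member from its own 6-library mean (colour, log2(RPKM + 0.5)), genes by role down the page and libraries across it, Vismodegib left of DMSO. DMSO replicate 1 is mostly blue (median -0.36) and DMSO replicates 2 and 3 mostly red (medians 0.29 and 0.45); in Vismodegib replicate 3 the OAS genes are higher than in the other Vismodegib libraries and the GBP and IRG genes lower.

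In the map of deviations by library, the members' median deviation was -0.01, -0.13 and -0.22 in Vismodegib replicates 1, 2 and 3 and -0.36, 0.29 and 0.45 in DMSO replicates 1, 2 and 3. The same medians over all genes were 0.18, 0.003 and -0.10 in Vismodegib and -0.16, 0.04 and 0.03 in DMSO. DMSO replicate 1 thus lay below DMSO replicates 2 and 3 in both sets, by more in the members.

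Within the Vismodegib group, role groups took different orders. Vismodegib replicate 3 was the highest of its group in 5 of 5 OAS genes and 3 of 4 IFIT genes, and the lowest in 6 of 6 GBP genes, 4 of 4 IRG genes and 3 of 3 of Parp9, Parp14 and Dtx3l. Over all genes it was the highest in 24.7% and the lowest in 54.9%. The median deviation of the OAS genes was -0.45, -0.30 and 0.30 in Vismodegib and -0.53, 0.66 and 0.39 in DMSO, and that of the GBP genes was 0.27, 0.19 and -0.73 in Vismodegib and -0.33, -0.34 and 0.79 in DMSO. The IFIT genes (-0.45, -0.33 and 0.13 in Vismodegib, and -0.63, 0.74 and 0.50 in DMSO) followed the OAS order in Vismodegib, and the IRG genes (0.34, -0.02 and -0.50 in Vismodegib, and -0.48, 0.36 and 0.39 in DMSO) followed the GBP order there. The families are small, so these counts are a description of 6 libraries and carry no test.

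**Figure D4:**
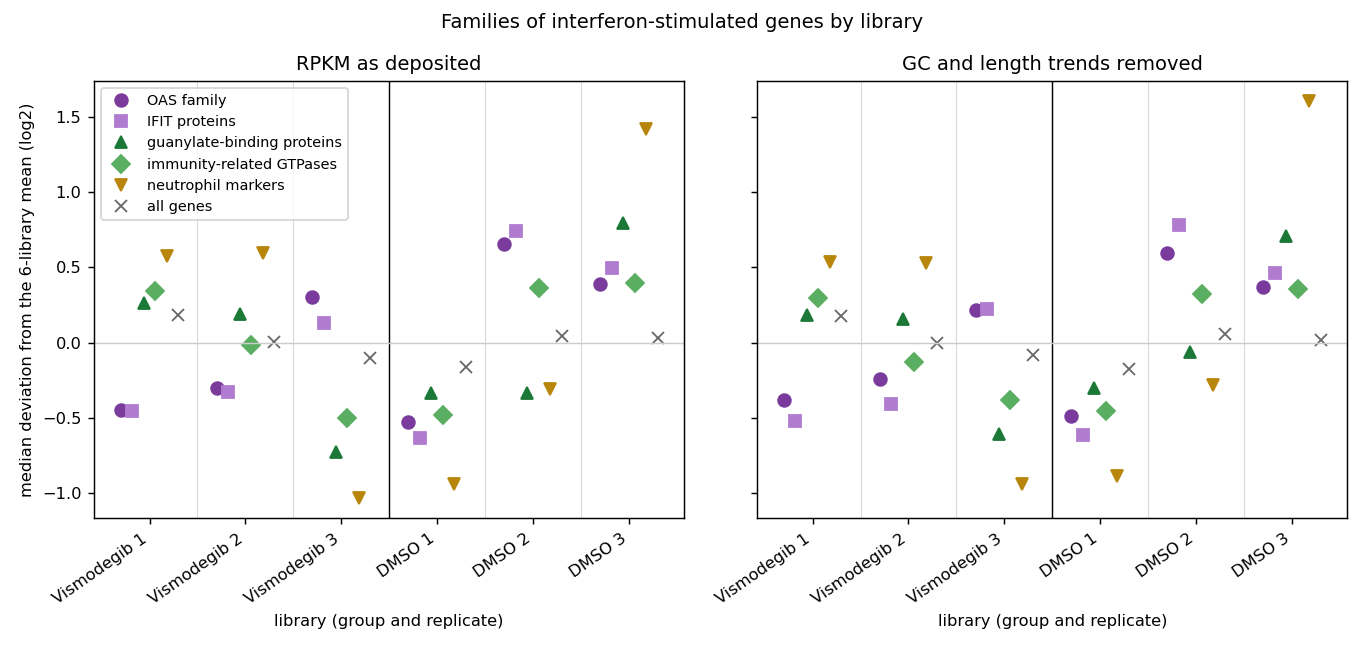
Median deviation from the 6-library mean (log2, vertical axis) of 4 member families, 5 tested neutrophil markers and all genes in each library, Vismodegib left of DMSO, from RPKM as deposited (left) and after removal of each library's GC and length trends (right). In Vismodegib replicate 3, OAS genes are at 0.30 (0.21 on the right) and GBP genes at -0.73 (-0.61); neutrophil markers run from -1.04 to 1.42 on the left.

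The plot of families by library sets beside them neutrophil markers, the only marker list drawn, whose values moved with the same libraries. Neutrophil markers had median deviations of 0.58, 0.60 and -1.04 in Vismodegib and -0.94, -0.31 and 1.42 in DMSO. Vismodegib replicate 3 was thus lowest and DMSO replicate 3 highest, which was also so for the GBP genes. From RPKM as deposited, the IRG genes (-0.50 and 0.39) and Parp9, Parp14 and Dtx3l (-0.34 and 0.48) had the same extremes. Adipocyte markers, not plotted, were also lowest in Vismodegib replicate 3 (-1.14). All 7 neutrophil markers were present and 5 were tested, 0 of them at an unadjusted p under 0.05 by limma or an adjusted one; their summed level was 101.3, 106.0 and 15.5 RPKM in Vismodegib and 22.7, 80.7 and 213.0 RPKM in DMSO, and the defining marker Ly6g was listed at 0 in Vismodegib replicate 3 and DMSO replicate 2. The 8 macrophage markers summed to 1627, 793 and 2708 RPKM in Vismodegib and 2130, 1215 and 1353 RPKM in DMSO, and the 8 T and NK cell markers to 25.0, 17.8 and 22.2 RPKM in Vismodegib and 28.5, 21.6 and 21.8 RPKM in DMSO. Median deviations of tested macrophage markers were 0.27, -0.75 and 0.08 in Vismodegib and 0.27, -0.06 and 0.04 in DMSO. Those of T and NK cell markers were 0.10, -0.01 and -0.27 in Vismodegib and 0.28, -0.06 and -0.01 in DMSO. Neither list had both extremes of the neutrophil markers. The part of these cells in the members' levels was not tested.

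GC content moved with the libraries too. Across 11592 genes, Pearson's r between a gene's GC content and its deviation was -0.22, -0.35 and 0.29 in Vismodegib and -0.04, 0.21 and -0.15 in DMSO, and across the 41 members it was -0.42, -0.41 and 0.36 in Vismodegib and -0.38, 0.53 and -0.19 in DMSO; genes are not independent replicates. The median GC content was 52.0% in the OAS genes, 44.5% in the IFIT genes, 44.4% in the GBP genes and 46.0% in the IRG genes, against 50.3% in all genes. With each library's GC and length trends removed, Vismodegib replicate 3 was still the highest of its group in 5 of 5 OAS genes and 3 of 4 IFIT genes and the lowest in 6 of 6 GBP and 4 of 4 IRG genes, and in 2 of 3 of the PARP group. The members' median difference was then -0.22, with 36 of 41 below 0.

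Members with and without an ISRE core in the promoter windows shown at the outset had similar counts and medians. Of 19 tested members with one, 18 were below 0, with a median difference of -0.26, and of 11 without one, 10 were below 0, with a median of -0.24.

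Upstream of the members, 4 of 14 listed interferon genes had a row in the table and are described; the others were not analysed here. Ifng, encoding interferon gamma, was at 1.65, 1.63 and 1.11 RPKM in Vismodegib and at 1.67, 1.13 and 1.53 RPKM in DMSO, a difference of 0.01. Ifnb1, encoding interferon beta, was at 0.064, 0 and 0 RPKM in Vismodegib and at 0.071, 0.497 and 0.066 RPKM in DMSO, where 3 reads correspond to 0.069 to 0.115 RPKM, so that DMSO replicate 2 was the library above that level. Ifnl3 was listed at 0 in all libraries but DMSO replicate 2 (0.148 RPKM, or 3 reads), and Ifnk was at 0.090, 0.262 and 0.493 RPKM in Vismodegib and at 0.166, 0.535 and 0.706 RPKM in DMSO. Of 9 receptors and receptor kinases, 7 were above 0 and 2 below (22.2%, against 41.6% of all genes). Their median was 0.07, close to the 0.05 of all genes. Jak2 (0.46), Ifngr2 (0.42) and Tyk2 (-0.29) had the smallest p of these, and the others were Ifnar1 (0.00), Ifnar2 (0.05), Ifngr1 (0.17), Ifnlr1 (-0.14), Il10rb (0.23) and Jak1 (0.07).

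Of 9 tested genes of the pathway that induces interferon, 6 were above 0 and 3 below (33.3%, against 41.6% of all genes), with a median of 0.09. An unadjusted p under 0.05 by limma was found in 0 of 9, against 2.25% of all genes. Cgas, the cytosolic DNA sensor, was at 0.554, 0.606 and 0.652 RPKM in Vismodegib and at 0.705, 0.918 and 1.16 RPKM in DMSO, without overlap. Its difference was -0.36, and the two-sided exact permutation p = 0.1 is again the value that any absence of overlap gives. Sting1, the adaptor after Cgas, had a difference of 0.32 and the kinase gene Ikbke one of 0.50. Of 9 negative regulators, 4 were above 0 and 5 below (55.6%, against 41.6% of all genes). Against 2.25% of all genes, 1 of 9 had an unadjusted p under 0.05 by limma. This was Socs1, a feedback inhibitor of JAK kinases that interferon gamma induces, at 18.2, 9.41 and 11.5 RPKM in Vismodegib and at 16.3, 34.4 and 35.5 RPKM in DMSO, a difference of -1.09 (95% interval -1.94 to -0.23; limma, unadjusted p = 0.019, adjusted p = 1). As in many members, DMSO replicate 1 was the control library within the Vismodegib range. The groups of Socs1 thus overlapped, and its two-sided exact permutation p was 0.2. The other leading genes of this list, Adar and Trex1, had differences of -0.38 and -0.32.

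Other interferon-induced genes leaned less to one side than the 41 members. Of 48 tested, 18 were above 0 and 30 below (62.5%, against 41.6% of all genes), with a median of -0.07. Against 2.25% of all genes, 1 of 48 had an unadjusted p under 0.05 by limma. That gene, Epsti1, ran opposite to most members, at 10.7, 9.27 and 5.91 RPKM in Vismodegib and at 6.58, 2.07 and 3.77 RPKM in DMSO, a difference of 1.06 (95% interval 0.15 to 1.97; limma, unadjusted p = 0.0272, adjusted p = 1). The groups of Epsti1 overlapped, and its two-sided exact permutation p was 0.2. Ifi27 had a difference of 0.40, and Tgtp1, a GTPase of the IRG family, one of -0.78. Of 18 genes known as targets of interferon gamma, 5 were above 0 and 13 below (72.2%, against 41.6% of all genes), with a median of -0.26. Socs1 was the 1 of 18 with an unadjusted p under 0.05 by limma, against 2.25% of all genes. Cd274, encoding the checkpoint ligand PD-L1, was at 4.73, 3.59 and 2.44 RPKM in Vismodegib and at 2.62, 6.41 and 10.7 RPKM in DMSO (difference -0.65), and Cxcl11, a chemokine that draws T cells, had a difference of -0.45. None of these genes passed adjustment.

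For the series as a whole, the read totals recovered from the steps of the low values were 41600000, 42700000 and 58000000 in Vismodegib and 37500000, 34800000 and 40500000 in DMSO. At those totals 3 reads on a transcript of 2 kb correspond to 0.0259 to 0.0431 RPKM, below the level of each of the 42 members in every library. Epithelial markers, which the 4T1 carcinoma should carry, summed to 2479 to 2595 RPKM in Vismodegib and 1593 to 2751 RPKM in DMSO. By this sum, DMSO replicate 3 was the highest of the 6 libraries and DMSO replicate 1 the lowest. By median deviation the highest was Vismodegib replicate 1, with 0.34, 0.29 and 0.11 in Vismodegib and -0.54, -0.52 and 0.23 in DMSO. Of the 7 markers, 5 were above 0 and 2 below, with a median log2 difference of 0.70. Of all 11818 genes, 6904 were above 0 and 4914 below, with a median of 0.05. An unadjusted p under 0.05 by limma was found in 3 of 7, against 2.25% of all genes (1.94% higher in Vismodegib). Other tissue markers also stood above 0: all 6 fibroblast markers (median 0.88, 3 at an unadjusted p under 0.05), all 3 tested adipocyte markers (1.42, 2 such genes) and all 5 skeletal muscle markers (1.497, 1 such gene). None passed adjustment, and the part of these tissues in the members' levels was not tested. The adipocyte and skeletal muscle differences were not shared by all libraries. Median deviations of adipocyte markers were 1.54, 1.54 and -1.14 in Vismodegib and -0.89, -0.77 and -0.57 in DMSO. Those of skeletal muscle markers were 1.40, 0.86 and 0.40 in Vismodegib and -1.29, 1.59 and -2.11 in DMSO. Those of fibroblast markers did not overlap, at 0.70, -0.20 and 1.02 in Vismodegib and -0.44, -0.51 and -0.44 in DMSO.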

How the data were processed

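Whole-tumour RNA was sequenced on Illumina machines in 6 libraries, 3 Vismodegib and 3 DMSO, grouped by title. The authors deposited RPKM values for 23381 gene symbols. The submitters' processing notes name Partek, STAR, HISAT2, SAMtools, cutadapt and bcl2fastq 2.17, with the mm10 build; the role of each tool, the annotation and any use of strand were not given in the sources used here. Members and gene lists were chosen with earlier results of these data known.

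The 11818 genes averaging 0.5 RPKM or more were fitted with limma 3.58.1 (R 4.3.3; lmFit, eBayes with a mean-variance trend) to log2(RPKM + 0.5), two-sided, with Benjamini-Hochberg adjustment over all of them. Differences, Vismodegib minus DMSO, are on the log2(RPKM + 0.5) scale and so are too small for low genes. RPKM is relative to a library's total, so a few very abundant genes can shift all others. Read totals, from the spacing of low values of 6992 genes with 1 transcript (83.6% to 85.4% of low values whole within 0.02 reads; a total too high by a whole-number factor would also pass), are 34800000 to 58000000; limits from 3 reads cover counting error only. Transcript length, GC content and shared 100-base stretches came from GENCODE M21.

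Named members were those of each role group with the highest mean and the smallest p, and those without overlap; other lists gave up to 3 by p; 1 gene planned for the receptor list, beside the 9 counted, is not reported here. Alternatives covered pseudocounts of 0.1 and 1, no filter or one of 2 RPKM, 2 scalings, 3 variance settings, a replicate block and each library left out; removal of GC and length trends was chosen after seeing the data. The fits were tested on simulated data.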

Additional observations from a re-analysis of the deposited data

How the results depend on the processing

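No gene passed an adjusted p under 0.05 by limma in the fit reported. With library weights 420 genes did, and with the replicate number as a block 1 gene did; leaving out each library gave 0 to 19 genes, 19 without DMSO replicate 1. Members past an adjusted p numbered 4 with library weights and 0 otherwise, with 0 in every fit that left out a library. Members at an unadjusted p under 0.05 by limma numbered 28 with library weights and 0 to 8 with a library left out. There were 8 without DMSO replicate 1, and 0 under the other alternatives. The share of all genes at an unadjusted p under these alternatives is not given here. The members' median difference was -0.54 with library weights and ran from -0.42 to -0.02 with a library left out; the count below 0 ran from 24 to 39 over the 17 alternatives, some of which tested 38 or 42 members. The weight of DMSO replicate 3 was 7.28 and no other was above 2.34; the estimation of the weights stopped before it reached its tolerance. With weights Ifit3b had a difference of -1.08 (limma, adjusted p = 0.0464) and Gbp3 one of -0.93 (adjusted p = 0.0456). Values of single members under the alternatives are given for the 16 taken by the rule for named genes, of which 11 kept their sign in all 17. The other members entered the counts and medians and are not given one by one. With each library left out in turn, Ifit1 ran from -0.37 to 0.12, Oas1a from -0.60 to 0.25, Gbp2 from -0.65 to 0.040, Igtp from -0.37 to 0.11 and Parp9 from -0.070 to 0.23; Parp9 was -0.0037 with median-ratio scaling. The cause was not tested. Deviations from the group mean in libraries of the same replicate number had correlations of 0.003, 0.04 and -0.30 for numbers 1, 2 and 3. Deviations within a group of 3 sum to 0, so these values cannot decide whether the numbers pair the samples. The labels do not state a pairing, and the block changed no call of a member. The limits are 3 libraries per group, an unknown number of animals, and the spread between libraries, with a median SD per member of 0.339 in Vismodegib and 0.527 in DMSO on the log2 scale.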
